A study of Rattus norvegicus with 5 samples.

Results

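The genes described are tissue factor (F3), the 3 fibrinogen chain genes (Fga, Fgb and Fgg), the brakes of coagulation Tfpi, Thbd and Procr, and the plasminogen activators Plat and Plau, which start clot lysis. They were chosen by their place in this pathway and for the higher intensities of F3 and Fga in C-peptide-treated cells, so the levels and differences of these 9 genes are given as a description, without a test. Each of the 9 was measured by 1 probe set, out of 14506 genes that had a probe set with a single symbol.

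The arrays held total RNA of proximal tubular cells, the epithelium of the first stretch of the nephron, taken from type I diabetic Sprague-Dawley rats. Cells of 3 animals had been exposed to C-peptide, the connecting peptide of proinsulin, for 2 h, and cells of 2 animals were kept without it. Every group therefore carried the diabetes, and a non-diabetic group was not analysed here. The labels do not state the dose of C-peptide, the age of the rats, how diabetes was brought about or how the cells were isolated.

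Coagulation starts when tissue factor, a membrane receptor outside the lining of vessels, meets the plasma protease factor VII. The cascade ends in thrombin, which turns fibrinogen into fibrin. Fibrinogen is a protein of paired alpha, beta and gamma chains that the liver secretes as an acute phase protein, and all 3 chains are needed to assemble it. Tissue factor pathway inhibitor blocks the first step, while thrombomodulin and the endothelial protein C receptor, both best known from endothelial cells, let thrombin activate the anticoagulant protein C. Tissue-type plasminogen activator (Plat) and urokinase (Plau) convert plasminogen to plasmin, which dissolves fibrin. Urokinase is a known product of renal tubular epithelium.

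Of these 9 genes, F3 and Fga stood higher in the C-peptide group, by 3.34-fold and 2.52-fold, and Thbd and Plat stood lower, by 2.33-fold and 1.84-fold. Fgb was higher by less and was dim, Tfpi was lower by less, and Fgg, Procr and Plau differed little. F3 and Fga had the third and the ninth highest difference among the 14506 genes, and Thbd the 57th lowest. All C-peptide arrays lay above all untreated arrays in 4 of the 9 genes, where 16.1% of all 29215 probe sets did so, and below them in 3, where 13.8% did so. Since the genes were picked on this contrast, no weight is put on these counts.

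Intensities below are quantile-normalised across arrays, because the medians of the deposited values ran from 60.1 to 95.9, and the median probe set then had an intensity of 82.1. Differences are on the scale of log2(intensity + 16), C-peptide minus untreated, with the standard error (SE) of the fit, and folds are taken from them. On that scale the median difference of all probe sets was 0.02. Intensities of different probe sets depend on their probes, so levels are not compared between genes. The labels number the animals within each group and do not say whether an untreated and a treated sample of the same number came from 1 rat.

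The upstream sequences of the fibrinogen genes are shown first, because the 3 chain genes lie next to each other on chromosome 2 in the order Fgg, Fga, Fgb and yet differed in what these arrays measured. RefSeq windows (build GRCr8) from 250 bases before to 50 bases after a transcript start were matched for 6 of the 9 genes, F3, Thbd and Plat aside. The windows are chr2:170671919-170672218 on the plus strand for Fga, chr2:170700826-170701125 on the minus strand for Fgb and chr2:170652833-170653132 on the plus strand for Fgg. Each is written 5′ to 3′. Capitals mark matches on either strand to 3 motifs known from acute phase genes, the C/EBP motif TTGCNNAA, the STAT3 motif TTCNNNGAA and the interleukin-6 response element CTGGGA.
Fga: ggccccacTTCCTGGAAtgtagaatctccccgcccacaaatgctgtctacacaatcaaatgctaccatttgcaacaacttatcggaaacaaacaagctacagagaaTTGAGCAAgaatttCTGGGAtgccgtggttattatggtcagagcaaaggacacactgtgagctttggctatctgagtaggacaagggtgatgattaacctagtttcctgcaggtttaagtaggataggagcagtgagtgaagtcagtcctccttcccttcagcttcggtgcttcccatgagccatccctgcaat
Fgb: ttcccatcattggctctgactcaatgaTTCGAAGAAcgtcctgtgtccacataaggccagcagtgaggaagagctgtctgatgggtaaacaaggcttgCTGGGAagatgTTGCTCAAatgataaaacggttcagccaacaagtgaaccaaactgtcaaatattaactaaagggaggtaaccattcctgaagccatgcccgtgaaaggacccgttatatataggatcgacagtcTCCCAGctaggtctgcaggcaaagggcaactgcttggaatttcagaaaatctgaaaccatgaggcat
Fgg: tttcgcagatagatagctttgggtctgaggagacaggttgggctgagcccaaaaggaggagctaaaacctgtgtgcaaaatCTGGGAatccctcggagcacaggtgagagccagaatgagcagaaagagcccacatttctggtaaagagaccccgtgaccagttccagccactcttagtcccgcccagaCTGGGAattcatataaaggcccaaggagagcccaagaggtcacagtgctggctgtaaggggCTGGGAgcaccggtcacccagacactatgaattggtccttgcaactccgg

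The windows of Fga and Fgb each held a C/EBP match, from -144 to -137 and from -141 to -134 relative to the transcript start, while the window of Fgg held none. They also each held a STAT3 match, from -242 to -234 in Fga and from -223 to -215 in Fgb, and Fgg again had none. For Fga the STAT3 match lay outside a further window that starts 18 bases downstream. The start used for Fgg lies inside the annotated gene, which begins at 170652929. The printed windows of Fga and Fgb are set on the annotated starts of those genes. The search in Fgg thus covered less sequence upstream of the gene, so its lack of matches is no like comparison. The interleukin-6 element was present in all 3, with 1 match in Fga, 2 in Fgb and 3 in Fgg, and also in Tfpi and Procr, so in 5 of the 6 genes with a window. Among all 33469 windows of the table, 10.6% held the C/EBP motif, 8.87% the STAT3 motif and 30.3% the interleukin-6 element. Of the other motifs searched, the AP-1 motif TGANTCA (7.33% of windows) was found in Fgb and Procr, and the SP1 motif GGGCGG (33.1%) in Fga, Fgg, Tfpi, Procr and Plau. A loose NF-kB motif was found in the same 5 genes as SP1 and in 47.3% of windows, and it overlapped SP1 matches in Plau and an interleukin-6 element in Procr. Tfpi had 2 windows, and all its matches named here lay in 1 of them. The TATA motif TATAAA (14.2%) was found in Fgg. The EGR motif GCGGGGGCG (2.73%), the cyclic AMP element TGACGTCA (1.83%) and an HNF1 motif (0.108%) had no match in the 6 genes. These matches describe letters in short windows and are no evidence of binding.

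F3 encodes tissue factor, the cell surface trigger of the cascade. It read 1663 in C-peptide animal 1, 864 in animal 2 and 1782 in animal 3, against 369 in untreated animal 1 and 432 in untreated animal 2, and later values follow this order. As deposited, the same arrays read 1328, 956 and 1758 against 409 and 466. Every C-peptide array lay above both untreated arrays on either scale, and C-peptide animal 2 was closest to them. The group means were 1437 ± 499 (SD, n = 3) and 400.5 ± 44.0 (SD, n = 2), and the log2 difference was 1.74 ± 0.31 (SE).

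Fga encodes the alpha chain of fibrinogen, from which thrombin cuts the first fibrinopeptides. Its normalised intensity was 336, 153 and 308 with C-peptide and 87.3 and 93.3 without. The deposited values were 238, 177 and 300.8 against 98.2 and 96.7. The groups again did not overlap, and the lowest C-peptide value was again that of animal 2. The means were 266 ± 98.7 (SD, n = 3) and 90.3 ± 4.30 (SD, n = 2), with a log2 difference of 1.34 ± 0.31 (SE). The untreated arrays stood close to the median probe set, at 82.1.

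**Figure D1:**
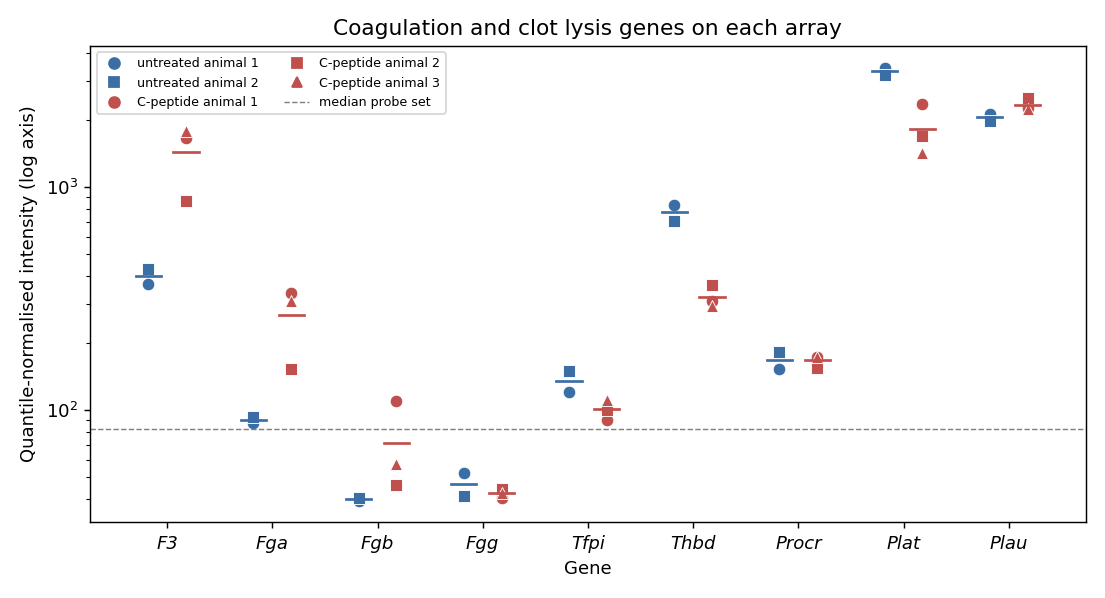
Quantile-normalised intensity (log axis) of the 9 genes on each of the 5 arrays, with horizontal bars for group means and a dashed line at the median probe set. F3 and Fga are higher on all 3 C-peptide arrays than on both untreated arrays, and Thbd and Plat are lower. Fgg lies below the median probe set, as does Fgb except in C-peptide animal 1 (110).

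Fgb and Fgg encode the beta and gamma chains, the partners of the alpha chain. Fgb read 110, 46.4 and 57.5 on the C-peptide arrays and 39.3 and 40.3 on the untreated ones. The groups did not overlap, but C-peptide animal 1 stood alone, and the log2 difference of 0.58 ± 0.29 (SE) was 0.29 without that array. Fgg read 40.2, 44.2 and 42.7 with C-peptide and 52.2 and 41.2 without. Its groups overlapped, with a log2 difference of -0.10 ± 0.15 (SE). Averaged over the arrays, the probe sets of Fgb and Fgg were brighter than 40.1% and 32.1% of all probe sets, and no detection calls were used here, so these low values may hold little signal. Of the 3 chains, only the alpha chain had a probe set brighter than the median when averaged over all arrays. That average includes the C-peptide arrays, for whose higher values Fga was chosen. It does not compare the levels of the chains, since intensities depend on the probes.

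Markers of hepatocytes, the main source of fibrinogen, and of platelets, which carry it, were read beside Fga. The 7 hepatocyte markers had a median log2 difference of -0.02, and their groups overlapped in all 7. Their summed intensity was 544 to 733 with C-peptide and 612 to 635 without. Tf alone read 203.5 to 367 with C-peptide and 288 to 303 without. Of the 7, 2 were brighter than the median probe set, so the list may hold little signal in which a difference could show. Albumin (Alb), the defining gene, averaged 21.6 and 34.5. Of the 7 platelet genes listed, 4 were measured, with a median of 0.01. Their summed intensity was 308 to 393 and 310 to 316, and the defining genes Pf4 and Ppbp differed by -0.11 and -0.13. Gp5 and Gp9, subunits of the platelet receptor for von Willebrand factor, differed by 0.14 and 0.53, and Gp9 was the 1 of the 4 whose groups did not overlap. Over all probe sets, 16.1% lay above and 13.8% below without overlap. The part of platelets in the difference of Fga was not tested.

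Thbd encodes thrombomodulin, the thrombin receptor of the vessel lining. Its normalised intensity was 308, 365 and 292 on the C-peptide arrays and 834 and 706 on the untreated ones. All C-peptide values lay below the lowest untreated value. The means were 322 ± 38.2 (SD, n = 3) and 770 ± 91.0 (SD, n = 2), and the log2 difference was -1.22 ± 0.16 (SE). The 13 endothelial markers had a median difference of -1.14 on the same arrays, and 12 of them lay below the untreated arrays without overlap, Plvap (-0.11) being the exception. Of all probe sets, 13.8% lay below in this way. Their summed intensity was 9074 to 14118 with C-peptide and 21695 to 25568 without. In RNA from a bulk preparation, fewer cells of a type and less RNA per cell cannot be told apart. The part of these cells in the difference of Thbd was not tested.

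Procr and Tfpi, the other members of this anticoagulant group, lay far from the endothelial median. Procr, the protein C receptor that works beside thrombomodulin, read 174, 155 and 173 with C-peptide and 154 and 182 without. The groups overlapped, and the log2 difference was 0.00 ± 0.15 (SE). Tfpi, the inhibitor of the tissue factor complex, read 90.6, 100.6 and 111 against 121 and 150.04. These groups did not overlap, with a log2 difference of -0.37 ± 0.16 (SE), which was -0.23 without untreated animal 2. So 1 of the 3 anticoagulant receptors and inhibitors had a difference near that of the endothelial markers.

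Plat encodes tissue-type plasminogen activator. It read 2363, 1697 and 1426 with C-peptide and 3433 and 3170 without, so that the groups did not overlap. The means were 1829 ± 482 (SD, n = 3) and 3302 ± 186 (SD, n = 2), and the log2 difference was -0.88 ± 0.22 (SE). Among the C-peptide arrays its order differed from that of Thbd. The highest value of Plat was that of animal 1 and the highest of Thbd that of animal 2.

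Plau encodes urokinase, the other plasminogen activator. It read 2265, 2517 and 2245 with C-peptide and 2130 and 1973 without. The groups did not overlap after normalisation and overlapped in the deposited values, with a log2 difference of 0.19 ± 0.14 (SE). Plat and Plau thus lay on different sides of 0, and that difference between them was not tested.

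**Figure D2:**
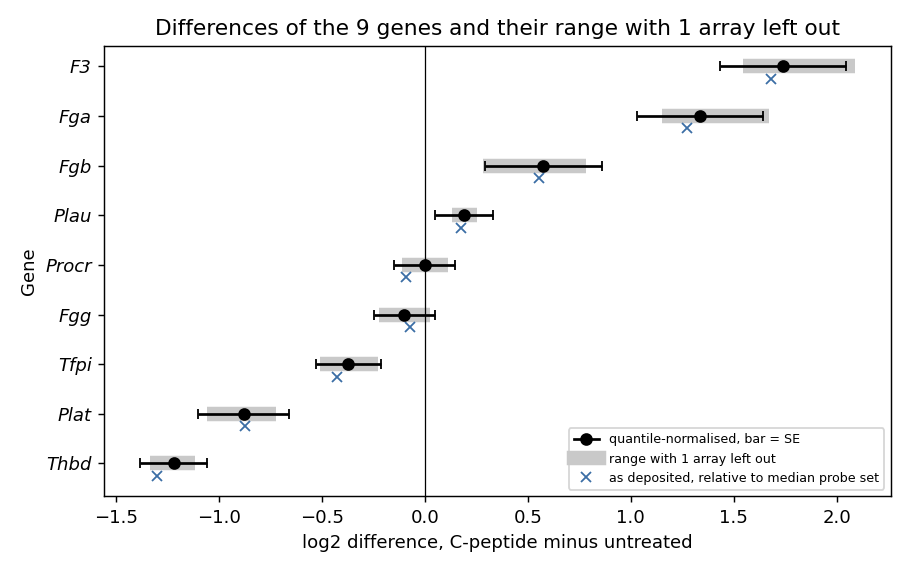
log2 difference (C-peptide minus untreated) of the 9 genes with SE bars, the range of the difference when any 1 array is left out (grey), and the difference in the deposited values relative to the median probe set (crosses). F3 (1.74) and Fga (1.34) lie farthest above 0 and Thbd (-1.22) and Plat (-0.88) farthest below, and for these 4 no range reaches 0.

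With any 1 array left out, the difference of F3 ran from 1.54 to 2.09 and that of Fga from 1.15 to 1.67. The highest of both was the value without C-peptide animal 2. Thbd ran from -1.33 to -1.11 and Plat from -1.06 to -0.72. In the deposited values, the differences relative to the median probe set were 1.68, 1.27, -1.30 and -0.87 for F3, Fga, Thbd and Plat.

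The labelled cell type was checked against its markers. All 15 proximal tubule markers were measured, and 14 were brighter than the median probe set, the exception being Slc22a7. So were 13 of 13 endothelial, 11 of 12 immune, 7 of 8 collecting duct and 6 of 7 thick limb and distal markers. It was 4 of 8 for stromal, 3 of 6 for podocyte, 2 of 4 for platelet and 2 of 7 for hepatocyte markers. The count thus does not set the proximal tubule apart from the other bright lists. Kdr averaged 4033 and Cd74 4591 in untreated cells, and no listed marker had an intensity of 0. Umod and Slc12a1, which define the thick ascending limb, averaged 5444 and 2191 in untreated cells, and the list for that segment and the distal tubule differed by 0.13 at its median. For podocytes the median over 6 genes was -0.50, with 4 below the untreated arrays without overlap. Podxl (-1.32) and Clic5 (-1.21) were the lowest of the 6. The groups of Nphs1 (0.11) and Wt1 (-0.17), both dimmer than the median probe set, overlapped, so the podocyte genes did not move together. Collecting duct and stromal markers had medians of 0.24 and -0.19. The proximal tubule markers had a median difference of 0.56, and 9 of 15 lay above the untreated arrays without overlap. Their summed intensity was 29073 to 38462 with C-peptide and 21118 to 24774 without. Immune markers had a median of -0.48, with 10 of 12 below the untreated arrays, and summed to 5768 to 7551 and 8445 to 9678. Over all probe sets, 16.1% lay above and 13.8% below the untreated arrays without overlap. The part of cell composition in the differences of F3, Fga and Plat was not tested.

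**Figure D3:**
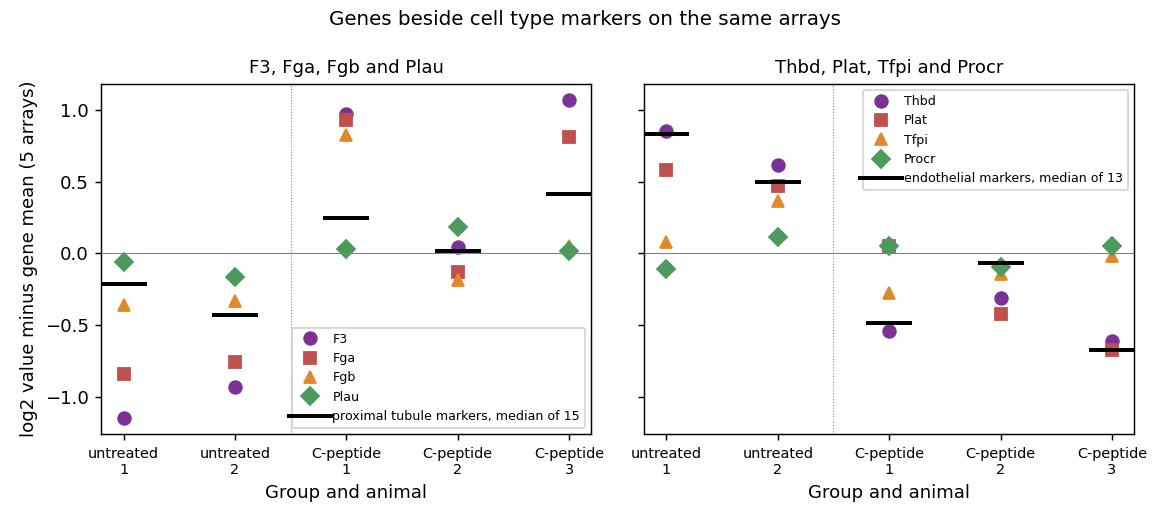
log2 value of 8 of the genes on each array, minus the gene's mean over the 5 arrays, beside the median of 15 proximal tubule markers (left) or 13 endothelial markers (right, black bars). On the array of C-peptide animal 2, F3 (0.04) and Fga (-0.13) lie near their means and the marker medians (0.02 and -0.07) do too. Thbd (-0.31) and Plat (-0.43) lie below the endothelial median on that array.

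On the array of C-peptide animal 2, the proximal tubule median was 0.02 and the endothelial median -0.07 from the mean over arrays. F3 and Fga stood at 0.04 and -0.13 there, and at 0.81 to 1.07 on the other C-peptide arrays. On those arrays the tubule median was 0.24 and 0.41 and the endothelial median -0.49 and -0.68. C-peptide animal 2 had Fgb at -0.19, Plau at 0.18, Tfpi at -0.15 and Procr at -0.10. Thbd and Plat, plotted with the endothelial median, stood at -0.31 and -0.43 on that array. Whether any of these genes follows the markers was not tested. Across all probe sets, the array of C-peptide animal 2 correlated with that of untreated animal 2 at Pearson's r = 0.982 and with that of C-peptide animal 3 at r = 0.982. The array of C-peptide animal 1 correlated with those of C-peptide animals 2 and 3 at 0.973 and 0.970. With untreated animals 1 and 2 it correlated at 0.958, the lowest of all pairs, and 0.965. These values describe the arrays only.

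The genes with log2 profiles closest to F3 over the 5 arrays, by Euclidean distance after each gene was centred on its mean, were Cyp2d2, a cytochrome P450, at 0.45, Ly6i at 0.45, Fga at 0.48, Slc5a8, a monocarboxylate transporter, at 0.50 and Cyp24a1, the vitamin D 24-hydroxylase, at 0.58. The median distance of all genes from F3 was 2.07. For Fga they were Cyp24a1 at 0.29, Slc5a8 at 0.34, F3 at 0.48, Tmem252 at 0.50 and Dhcr7, an enzyme of cholesterol synthesis, at 0.57, with a median of 1.68 over all genes. F3 and Fga were both chosen for their higher values in the C-peptide group on these arrays, so their closeness is no separate result. The genes share the same 5 arrays, and the list describes likeness over these arrays only.

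Further genes of coagulation, clot lysis and the acute phase were tested in the limma fit over all 29215 probe sets. Of 63 listed, 58 were measured, and 0 of them passed at adjusted p 0.05. At this threshold 0 probe sets (0%) passed over the whole array, where the smallest adjusted p was 0.0966. That count was sensitive to the processing, with 52 probe sets as deposited (6 higher, 46 lower) and 207 with a trended and robust variance prior (36 higher, 171 lower). The deposited values were tested against 0, with the median difference of all probe sets at -0.13. Higher and lower were counted from that median. At an unadjusted p under 0.05 there were 4 of the 58 higher and 8 lower, beside 1477 higher and 1840 lower of all probe sets. Groups were separated upwards in 11 of the 58 genes (19.0%) and downwards in 18 (31.0%), beside 16.1% and 13.8% of all probe sets. The median difference of the 58 was 0.00. The counts above and below in the lists that follow stand beside the same 16.1% and 13.8%, and some are near them. No gene named in the next paragraphs passed the test, and each is given with its value.

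Coagulation factors and cofactors had a median of 0.20 over 14 genes, with 4 above and 3 below the untreated arrays without overlap. F2, prothrombin, read 56.7, 37.5 and 49.97 with C-peptide and 27.1 and 20.8 without, all dimmer than the median probe set. Its log2 difference was 0.68 ± 0.18 (SE; limma adjusted p = 0.228). Vkorc1, which recycles the vitamin K that clotting factors need, differed by 0.54 ± 0.22 and Kng1, a kininogen, by 0.52 ± 0.23. F7, the protease that tissue factor binds, and F10, the substrate of that complex, had mean intensities of 21.2 and 27.1 with C-peptide and 27.5 and 25.1 without. Both were dim, with differences of -0.21 and 0.03.

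Anticoagulants had a median of -0.07 over 10 genes, with 1 above and 3 below. Entpd1, the ectonucleotidase CD39 that removes ADP around platelets, read 385, 631 and 436 against 746 and 755, a difference of -0.65 ± 0.22 (SE; limma adjusted p = 0.343). Anxa5, which covers procoagulant phospholipid, was at -0.49 ± 0.21 and Pros1, protein S, at -0.38 ± 0.15. Proc, protein C itself, was at 0.39 ± 0.21, and its groups overlapped.

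The plasminogen system had a median of -0.15 over 12 genes, with 2 above and 5 below. Serpinf2, the plasmin inhibitor alpha-2-antiplasmin, read 509, 455 and 517 with C-peptide and 310.0 and 317 without, so that every C-peptide array lay above both untreated arrays. Its difference was 0.63 ± 0.14 (SE; limma adjusted p = 0.176). Serpine2, an inhibitor of thrombin and urokinase, was at -0.58 ± 0.19 and Anxa2, a surface protein that binds Plat and plasminogen, at -0.66 ± 0.24. Plaur, the urokinase receptor, was at -0.31 ± 0.24 with overlapping groups. Plg, plasminogen, was dim, at 34.0 and 29.2 on average, with a difference of 0.14 ± 0.14.

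Of the 5 protease receptors, F2r, the main thrombin receptor PAR1, read 117, 152 and 133 with C-peptide and 206.5 and 198 without. Its difference was -0.55 ± 0.15 (SE; limma adjusted p = 0.263), beside -1.14 for the endothelial markers, cells that carry this receptor. F2rl1, the receptor PAR2 of epithelial cells, which the tissue factor complex can cleave, was at 0.37 ± 0.22 with overlapping groups. F2rl3 was at 0.15 ± 0.13.

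Fibrinogen genes are known targets of interleukin-6, which acts through STAT3, and the acute phase list was set beside them. It had a median of -0.02 over 17 genes, with 3 above and 6 below. Socs3, an early target and brake of STAT3, read 876, 1029 and 792 with C-peptide and 2022 and 1562 without. Its groups did not overlap, and the difference was -0.98 ± 0.18 (SE; limma adjusted p = 0.134, and 0.0400 to 0.809 over 12 alternatives). Cebpb, a factor of the acute phase, was at -0.53 ± 0.19, and Hnf4a, a factor shared by liver and proximal tubule, at 0.50 ± 0.19. Stat3 itself was at 0.05 ± 0.15, and Cebpa and Cebpd, the relatives of Cebpb, at -0.21 ± 0.15 and -0.23 ± 0.15. Il6, the interleukin-6 gene, was at -0.02 ± 0.41, and its receptor genes Il6r and Il6st at 0.05 ± 0.14 and -0.31 ± 0.15. Among products that the liver secretes in the acute phase, Lcn2 was at 0.38 ± 0.31 and Agt at 0.30 ± 0.17. Hp, haptoglobin, was at 0.24 ± 0.15, Hpx at 0.12, Orm1 at 0.07, Lbp at -0.03, Cp at -0.05 and C3 at -0.37 ± 0.16. Hnf4a, Hp and Agt were the 3 genes above, and Il6st, Socs3, Cebpa, Cebpb, Cebpd and C3 the 6 below. Beside Socs3, the median difference of endothelial markers was -1.14, and the part of cell composition in the difference of Socs3 was not tested.

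**Figure D4:**
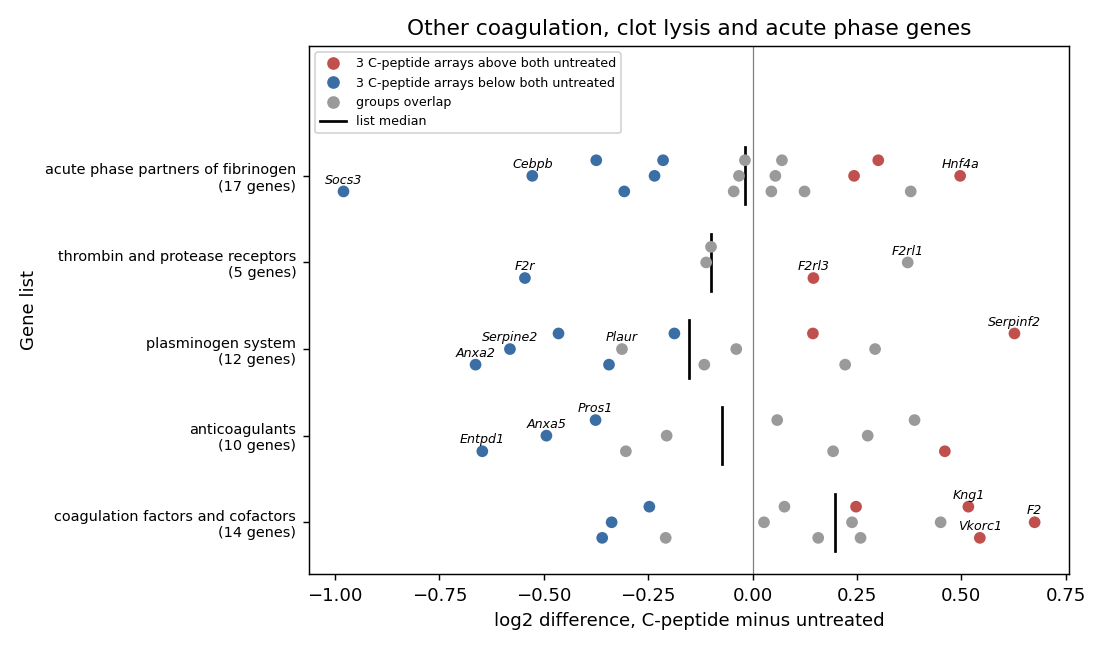
log2 difference (C-peptide minus untreated) of 58 further genes in 5 lists, 1 point per gene, coloured by whether the 3 C-peptide arrays lie above or below both untreated arrays; black bars are list medians. The medians run from -0.15 (plasminogen system) to 0.20 (coagulation factors), and Socs3 (-0.98) is the lowest point.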

How the data were processed

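The authors deposited linear intensities per probe set, which the submitters' processing notes credit to PLIER in Affymetrix Expression Console 1.1. Neither the labels nor the table state a background correction or scaling. The arrays were quantile-normalised and taken to log2(intensity + 16), which understates changes of dim probe sets. A limma 3.58.1 model (lmFit, then eBayes; R 4.3.3) with a single group term gave two-sided p-values, which were adjusted by Benjamini-Hochberg over all 29215 probe sets. The fit was tested on simulated data. Those values were drawn independently, without shifts shared by the probe sets of an array, so they do not bear on the counts reported here.

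Probe sets with 1 symbol in the platform annotation (15310, of which 15279 were found in the RefSeq table of GRCr8) named 14506 genes, each by its brightest probe set. Members, gene lists and tests were chosen with earlier results of these data known. Named genes were all members, 3 per list with the smallest p and genes from a set written down with the lists (among them F7, F10, F2, F2r, F2rl1, Plaur, Plg, Proc, Socs3 and Hp). The other named genes of the acute phase list and the single cell type markers were named after their values were seen. Those genes were Stat3, Cebpa, Cebpd, C3, Cp, Lbp, Orm1, Lcn2, Agt, Hpx, Il6, Il6r and Il6st. Precision is limited by 5 arrays. The labels number the animals 1 to 3 in the C-peptide group and 1 to 2 in the untreated group. Same-numbered animals are not stated to be paired.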

Additional observations from a re-analysis of the deposited data

How the results depend on the processing

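No result changed direction among F3, Fga, Fgb, Tfpi, Thbd, Plat and Plau under the 12 alternatives run, while Fgg and Procr, whose groups overlapped, lay near 0 and took either sign. F3 ran from 1.54 to 2.09 and Fga from 1.05 to 1.67. The number of probe sets past adjusted p 0.05, 0 after quantile normalisation, was 52 in the deposited values (46 lower), 29 with arrays centred on their medians (22 lower), 1 at a pseudocount of 1 (higher), 118 at a pseudocount of 64 (99 lower), 113 without probe sets dimmer than 32 (97 lower), and 207 with a trended and robust variance prior (171 lower). It was 0 with any 1 array left out, where a lone untreated array is assumed to vary like the other group. The deposited values were tested against 0 without removing their median difference of -0.13, while lower was counted from that median. The cause of the differences between these counts was not tested, other than that leaving out dim probe sets tests fewer of them. Of the 58 further genes, 1 passed with the trended and robust prior (Socs3, adjusted p = 0.0400, against 0.0574 to 0.809 under the other alternatives) and 0 otherwise.

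With the animal number as a replicate block, 0 probe sets passed, and F3 and Fga differed by 1.55 and 1.20. C-peptide animal 3 has no untreated partner and adds nothing to that difference. The block fit is thus close to leaving that array out, where F3 and Fga differed by 1.54 and 1.20. Deviations of same-numbered arrays correlated at -0.02 and 0.01. Averaging probe sets within a gene changes nothing here, since each of the 9 genes had 1. The number of arrays and the low signal of Fgb, Fgg, F2, F7, F10 and Plg limit what can be read from them.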
